A study of Mus musculus with 6 samples.

Results

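The signal of 10 genes known to mark blood vessel endothelium (Pecam1, Cdh5, Kdr, Tek, Emcn, Esam, Eng, Cldn5, Vwf and Flt1) was followed in sorted YFP+ luminal mammary epithelial cells (MECs), as a check on carried-over endothelial cells. The genes were listed by name, and every probe set annotated to exactly 1 of them was taken. This gave 15 probe sets of 45101 on the array, for 10 of 18194 genes with a probe set of their own. The cells came from 3 adult virgin females with the genotype MMTV-Cre;Runx1L/L;R26Y (Runx1-null) and 3 with MMTV-Cre;Runx1+/+;R26Y (Runx1-WT), on a mixed B6/129/FVB background, with 1 array per mouse. Both genotypes carried the Cre transgene and the YFP reporter, so the groups differ in the floxed Runx1 alleles. MMTV-Cre recombines mainly in luminal MECs and in a portion of basal MECs. The study also states that its expression leaks into hematopoietic cells of the bone marrow. The study's sorts removed cells that stained for CD31, CD45 or TER119 (the lineage, or Lin, markers) and kept CD24+CD29lo cells, and CD31 is the protein made from Pecam1.

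Endothelial cells line blood and lymphatic vessels. They respond to VEGF through tyrosine kinase receptors, to angiopoietins through Tie2, and to ligands of the TGF-beta family through a receptor complex that holds endoglin, and they are joined by VE-cadherin, claudin-5 and members of the immunoglobulin superfamily. In the mammary gland, capillaries run through the fat pad and around the ducts, so a digest of whole glands holds endothelial cells beside epithelium, fibroblasts, pericytes and leukocytes. Several of the genes are not limited to endothelium: Pecam1 is also made by leukocytes and platelets, Vwf and Esam by megakaryocytes or platelets, Eng by stromal cells and macrophages, and Flt1 by monocytes.

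Intensities are the linear values that the authors had normalized with dChip. Before log2 was taken, a floor of 19.335, the 20th percentile of all values, was applied. Probe sets with a mean over the 6 mice of at least 73.5 (the 40th percentile) were tested with limma, 22709 in all, and 12 of the 15 endothelial probe sets, from 9 of the 10 genes, were among them. Differences are Runx1-null minus Runx1-WT on the log2 scale. All 10 genes of a luminal list (Krt8, Krt18, Krt19, Epcam, Cdh1, Cldn3, Cldn4, Cldn7, Elf3 and Ehf) passed that filter. Their summed intensities were 80520 to 83452 in Runx1-null and 77078 to 81993 in Runx1-WT mice. Passing the filter does not by itself show luminal identity, since all 10 genes of a stromal matrix list passed it too. The genotypes overlapped on all 6 probe sets of Runx1. These cannot serve as a check of the deletion, since their place relative to the floxed exon is not known here. By qRT-PCR, the study found Runx1 expression lost in sorted YFP+ MECs of Runx1L/L females. In their YFP+ mature luminal cells it found only a slight reduction, and it proposes that many of these cells escaped excision. Values below the floor made up 19.3% to 22.3% of each Runx1-null array and 18.8% to 20.6% of each Runx1-WT array. On the log2 scale, 3' minus 5' control signal, a sign of RNA quality, was 0.47 to 0.61 in Runx1-null and 0.46 to 0.47 in Runx1-WT mice for Gapdh, and for beta-actin it was 0.44 to 0.74 in Runx1-null and 0.50 to 0.52 in Runx1-WT mice. Both values were highest in Runx1-null mouse 3. Limma called 0 of 22709 probe sets at an adjusted p under 0.05 (a background of 0%), and 382 had an unadjusted p under 0.05, so 0 of the 12 endothelial probe sets were called as well.

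The mean intensity of both VEGF receptors and of the angiopoietin receptor was lower in the Runx1-null group, and the genotypes separated for Kdr and Tek but not for Flt1. Kdr, the main signalling receptor for VEGF-A, was at 129, 152 and 150 in Runx1-null mice 1, 2 and 3, against 353, 213 and 170 in Runx1-WT mice 1, 2 and 3. Every Runx1-null mouse lay below every Runx1-WT mouse, and the spread was wider among the Runx1-WT mice, with mouse 1 the highest. The mean was 144 ± 12.6 in Runx1-null and 245 ± 96.0 in Runx1-WT mice (SD, n = 3 each), a ratio of 0.614 and a log2 difference of -0.70 (standard error 0.32, 95% interval -1.45 to 0.05). Tek, which encodes the receptor Tie2, was at 109, 137 and 155 in Runx1-null and 292, 163 and 223 in Runx1-WT mice. The groups again did not overlap, by a gap between 155 in Runx1-null mouse 3 and 163 in Runx1-WT mouse 2. Its mean was 134 ± 23.0 in Runx1-null and 226 ± 64.7 in Runx1-WT mice (SD, n = 3 each), a log2 difference of -0.73 (standard error 0.30, 95% interval -1.44 to -0.02).

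Neither passed limma's test over all probe sets (adjusted p = 0.9999 for each, as for the other 10 endothelial probe sets). Tek was the 1 of the 12 past an unadjusted limma limit of 0.05, and 1.13% of all tested probe sets passed that limit with the lower mean in Runx1-null cells. The exact permutation test, two-sided, gave p = 0.1 for each, the smallest p that 3 mice against 3 can give. After quantile normalization or scaling of the arrays to the same median, the groups overlapped for both genes.

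Flt1, which binds VEGF-A and also exists as a secreted decoy, was read by 4 probe sets. On the brightest it was at 327, 267 and 315 in Runx1-null and 562, 501 and 287 in Runx1-WT mice. Runx1-WT mice 1 and 2 stood above all Runx1-null mice and Runx1-WT mouse 3 stood among them. The log2 difference was -0.52 (standard error 0.30). The others gave -0.34, -0.23 and -0.10, the last below the filter with 2 of 6 values below the floor. All 4 were below 0 and none separated the genotypes. The exact permutation test gave p = 0.3 for the brightest.

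**Figure D1:**
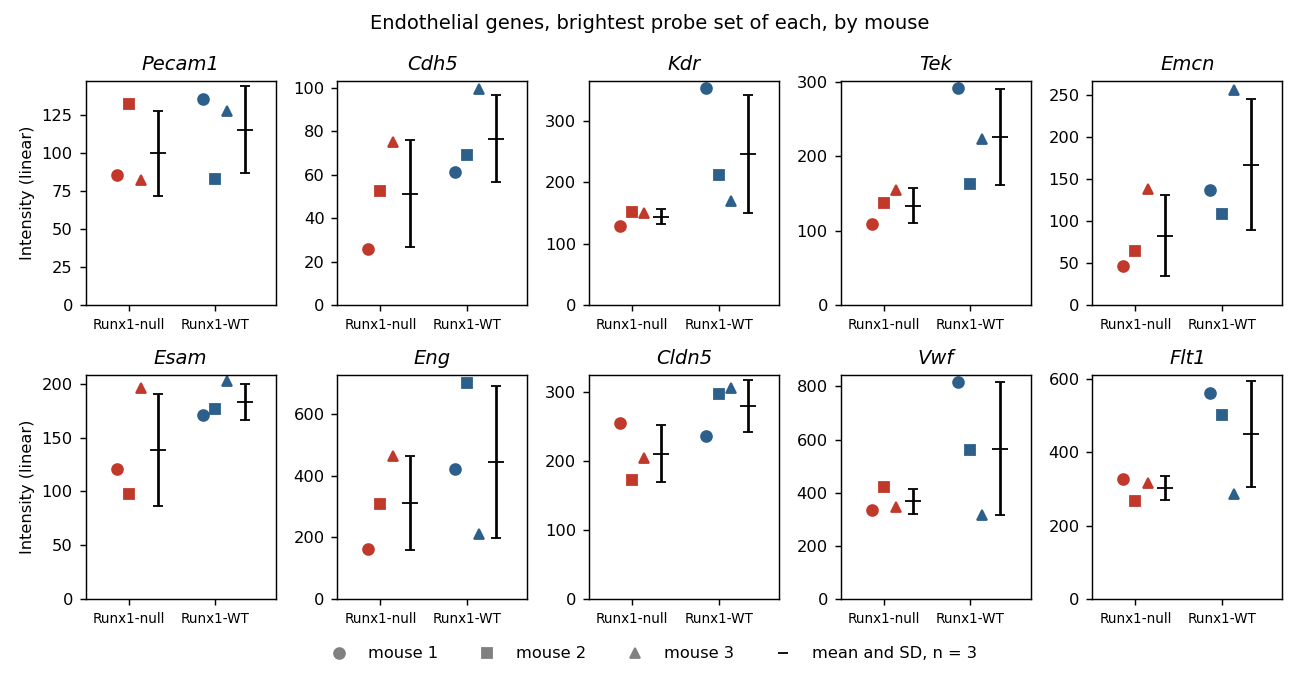
Linear intensity of the brightest probe set of each endothelial gene in every mouse (symbols for mice 1 to 3), with Runx1-null to the left of Runx1-WT, and the mean with SD (bars, n = 3). Kdr and Tek are the genes whose groups do not overlap (Tek at 109 to 155 in Runx1-null and 163 to 292 in Runx1-WT mice), and for Eng the mice of both genotypes are mixed.

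Eng encodes endoglin, the co-receptor for BMP9 and TGF-beta on endothelium. It was at 161, 310 and 464 in Runx1-null mice and 423, 700 and 211 in Runx1-WT mice. The genotypes overlapped over most of this range, with Runx1-WT mouse 2 the highest and Runx1-null mouse 1 the lowest. The mean was 312 ± 151 in Runx1-null and 445 ± 245 in Runx1-WT mice (SD, n = 3 each), a log2 difference of -0.48 (standard error 0.54). The second probe set put the 6 mice in the same order, with 31.7, 92.1 and 135 in Runx1-null and 97.9, 213 and 78.0 in Runx1-WT mice (log2 difference -0.68, standard error 0.63). The standard errors of both were larger than that of any other tested endothelial probe set, and the exact permutation test gave p = 0.5 on each probe set.

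Among genes of endothelial junctions and adhesion, the means of Pecam1, Cldn5 and Esam were lower in Runx1-null mice, least so for Pecam1, and the genotypes overlapped for every gene. Pecam1 was at 85.7, 132 and 82.1 in Runx1-null and 136, 82.7 and 127 in Runx1-WT mice. Runx1-null mouse 2 lay between Runx1-WT mice 1 and 3, and Runx1-WT mouse 2 was level with Runx1-null mouse 3. The mean was 99.97 ± 27.9 in Runx1-null and 115 ± 28.5 in Runx1-WT mice (SD, n = 3 each), a log2 difference of -0.21 (standard error 0.34, 95% interval -1.005 to 0.59; exact permutation test, p = 0.7). Each of these values was below the median of its own array.

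Cldn5, the main claudin of endothelial tight junctions, was at 254, 173 and 204 in Runx1-null and 236, 297 and 305 in Runx1-WT mice. Runx1-null mouse 1 lay above Runx1-WT mouse 1 and the other mice kept the order of the means. Its log2 difference was -0.42 (standard error 0.24; exact permutation test, p = 0.2). Esam, an adhesion molecule of the immunoglobulin superfamily at endothelial tight junctions, was at 121, 97.3 and 197 in Runx1-null and 171, 176 and 203 in Runx1-WT mice. Runx1-null mouse 3 lay within the range of the Runx1-WT mice and the other Runx1-null mice were below them (log2 difference -0.47, standard error 0.32; exact permutation test, p = 0.3).

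Cdh5, which encodes VE-cadherin of adherens junctions, did not pass the intensity filter on either of its probe sets and was not tested. The brighter was at 25.97, 52.8 and 75.2 in Runx1-null and 61.4, 69.3 and 99.5 in Runx1-WT mice, a log2 difference of -0.68. The dimmer was at 38.3, 36.9 and 35.2 in Runx1-null and 24.8, 40.6 and 48.0 in Runx1-WT mice, a log2 difference of 0.01. The 2 probe sets therefore did not give the same direction, and neither separated the genotypes (exact permutation tests, p = 0.3 and p = 1).

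Emcn, a sialomucin of capillary and venous endothelium, had the largest difference of the endothelial genes. It was at 46.6, 64.0 and 138 in Runx1-null and 138, 108 and 256 in Runx1-WT mice. Runx1-null mouse 3 was level with Runx1-WT mouse 1 and above Runx1-WT mouse 2, so the groups overlapped. The mean was 82.8 ± 48.4 in Runx1-null and 167 ± 78.0 in Runx1-WT mice (SD, n = 3 each), a ratio of 0.476 and a log2 difference of -1.07 (standard error 0.51, 95% interval -2.27 to 0.13; exact permutation test, p = 0.3). Vwf, the clotting factor stored in endothelial granules, was at 335, 420 and 347 in Runx1-null and 818, 561 and 317 in Runx1-WT mice. As for Flt1, Runx1-WT mice 1 and 2 stood high and Runx1-WT mouse 3 was not above the Runx1-null mice (log2 difference -0.53, standard error 0.36; exact permutation test, p = 0.4).

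The promoters of Kdr and Tek are shown because these genes separated the genotypes, and those of Cldn5 and Flt1 because they alone, of the 6 endothelial genes with a RefSeq promoter here (Kdr, Tek, Emcn, Eng, Cldn5 and Flt1), hold letters of the RUNX motif. Each sequence is the 250 bases before the annotated gene start (RefSeq, GRCm38.p6), written 5' to 3' along the gene. Capitals mark matches on either strand, to the RUNX letters TGTGGT or TGCGGT in Cldn5 and Flt1, and to the ETS letters CAGGAA or CCGGAA, of the factor family that drives many endothelial genes, in Kdr and Tek.
Kdr, chr5:75978456-75978705, minus strand: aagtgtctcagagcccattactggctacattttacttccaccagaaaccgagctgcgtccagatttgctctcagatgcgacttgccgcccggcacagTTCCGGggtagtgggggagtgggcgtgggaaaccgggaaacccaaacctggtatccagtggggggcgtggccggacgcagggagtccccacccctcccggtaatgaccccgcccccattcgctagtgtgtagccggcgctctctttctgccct
Tek, chr4:94739039-94739288, plus strand: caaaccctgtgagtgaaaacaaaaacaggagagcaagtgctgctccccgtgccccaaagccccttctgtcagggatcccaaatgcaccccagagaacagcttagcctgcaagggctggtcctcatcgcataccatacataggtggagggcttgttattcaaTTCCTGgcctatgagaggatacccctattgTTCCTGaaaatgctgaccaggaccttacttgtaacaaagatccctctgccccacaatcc
Cldn5, chr16:18776597-18776846, plus strand: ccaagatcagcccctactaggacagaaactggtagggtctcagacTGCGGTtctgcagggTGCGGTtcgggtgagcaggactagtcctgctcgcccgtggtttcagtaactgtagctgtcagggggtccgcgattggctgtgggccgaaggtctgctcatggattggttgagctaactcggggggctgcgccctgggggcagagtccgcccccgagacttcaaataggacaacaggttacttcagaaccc
Flt1, chr5:147726012-147726261, minus strand: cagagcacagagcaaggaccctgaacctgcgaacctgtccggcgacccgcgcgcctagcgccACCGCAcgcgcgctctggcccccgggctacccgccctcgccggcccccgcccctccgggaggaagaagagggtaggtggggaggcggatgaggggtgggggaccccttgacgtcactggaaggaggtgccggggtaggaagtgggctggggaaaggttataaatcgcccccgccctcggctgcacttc

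RUNX letters stood in 2 of the 6 endothelial promoters and in 18.6% of 32851 promoters of the same length, and ETS letters in 3 of 6 (Kdr, Tek and Emcn) and in 35.1%. No motif of one kind overlapped the other in these 6. The RUNX letters were in Cldn5 and Flt1, and Kdr and Tek had none in this window. Whether such letters go with a difference between the genotypes was not tested. With 6 promoters, and none of these genes called by limma, the data cannot decide it. A match describes the letters and not a bound site.

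Over the endothelial genes together, differences below 0 were more frequent than over the whole array, and limma called none of them. Of the 15 probe sets, 14 had a log2 difference below 0, with a median of -0.48, and of the 12 tested, 12 did, with a median of -0.50. Over all tested probe sets 56.8% were below 0 and the median was -0.03. The 12 come from 9 genes, since Flt1 was tested on 3 probe sets and Eng on 2, and probe sets of 1 gene are not independent. Complete separation of the genotypes with Runx1-null lower was seen for 2 of the 12 (Kdr and Tek), where the background was 3.29% of all tested probe sets. With Runx1-null higher it was seen for 0 of the 12, where the background was 1.92%. Both separations were lost after quantile normalization and after median scaling, where the share of all tested probe sets was 2.50% and 1.40%. In bulk RNA of sorted cells, fewer endothelial cells and less RNA of these genes per cell cannot be told apart.

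**Figure D2:**
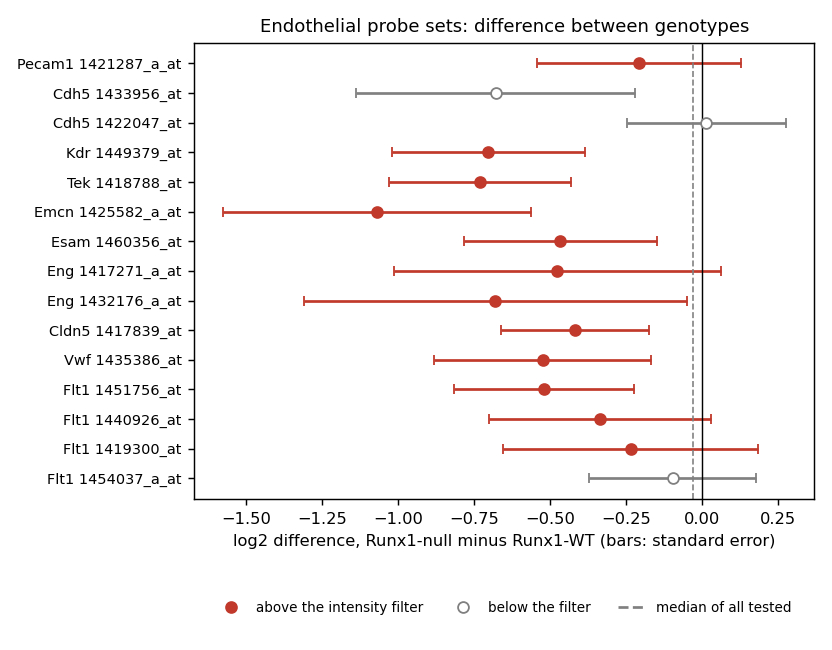
Log2 difference of each endothelial probe set, Runx1-null minus Runx1-WT, with its standard error (bars; from limma without the filter for the grey probe sets below it). Points lie left of 0 for 14 of 15 probe sets, and the median of all tested probe sets (dashed line) is -0.03.

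The 6 mice were not split evenly by genotype. Runx1-WT mice 1, 2 and 3 held the highest value for 5, 4 and 5 of the 15 probe sets, and Runx1-null mouse 3 for 1 (the dimmest probe set of Flt1). Runx1-null mice 1 and 2 held the lowest value for 6 and 5 probe sets, Runx1-null mouse 3 for 1, and Runx1-WT mice 1 and 3 for 1 and 2. The mean log2 intensity over the 12 tested probe sets was 6.91, 7.09 and 7.44 in Runx1-null and 7.81, 7.79 and 7.42 in Runx1-WT mice. Runx1-null mouse 3 and Runx1-WT mouse 3 were level, and the other mice lay on either side of them. With 1 probe set for each of the 9 tested genes the means were 7.19, 7.39 and 7.65 in Runx1-null and 8.19, 7.94 and 7.81 in Runx1-WT mice and did not overlap, so the order of the third mice depends on how genes with several probe sets are counted. The summed intensity of the brightest probe set of all 10 genes was 1596, 1805 and 2127 in Runx1-null and 3191, 2870 and 2199 in Runx1-WT mice. These means and sums use the deposited values without further scaling. The array medians were 148, 145 and 106 in Runx1-null and 163, 131 and 129 in Runx1-WT mice. Scaling to the same median therefore raises Runx1-null mouse 3 the most. Whether the means and sums stay apart after scaling was not tested.

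The labels number the animals, and these numbers fall into a lower range (4 mice, 2 of each genotype) and an upper range (2 mice, 1 of each, the third of each group). The difference was larger in the lower range. There the median over the 12 tested probe sets was -0.84, and both Runx1-null mice lay below both Runx1-WT mice for 9 of the 12, where the background was 22.8%. Between the 2 mice of the upper range, which give values with no test, the median depended on how genes with several probe sets were counted. It was 0.04 over the 12 probe sets, which hold Flt1 3 times and Eng 2 times, and -0.18 over the 9 tested genes with 1 probe set each, against -0.85 for the same genes in the lower range. Of all 10 genes, 7 were below 0 in the upper range and 9 in the lower range. Emcn (-0.89), Pecam1 (-0.63), Cldn5 (-0.58), Tek (-0.53) and Cdh5 (-0.40, below the filter) were lower in the Runx1-null mouse of the upper range, Kdr (-0.18) and Esam (-0.04) differed less, and Vwf and Flt1 (0.13 each) and Eng (1.14) were higher. In the lower range Eng had the largest difference of the 10 genes, at -1.28, and Pecam1 the smallest, at 0.01. The labels do not say what the ranges mean, and whether the mice of a range shared a litter or a sorting day was not tested.

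**Figure D3:**
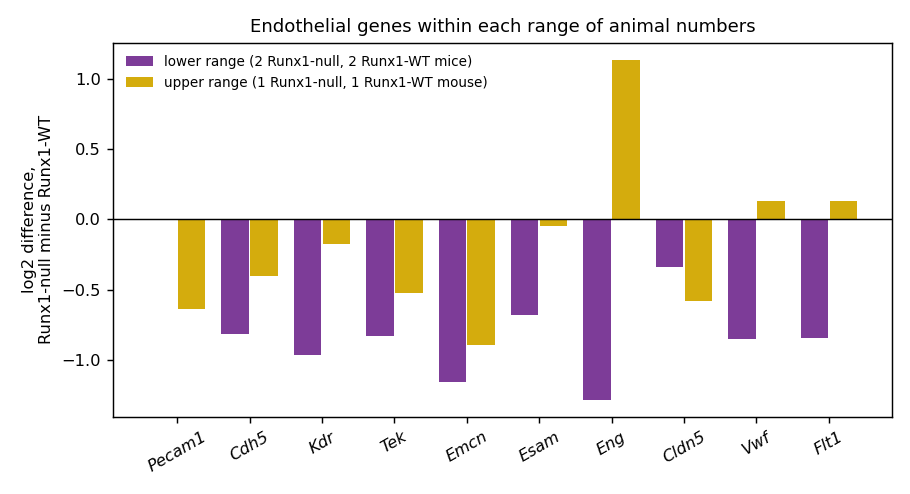
Log2 difference, Runx1-null minus Runx1-WT, of the brightest probe set of each endothelial gene within the lower (2 against 2 mice) and the upper range of animal numbers (1 against 1, with no error). The lower range bars lie below 0 for every gene but Pecam1 (0.01), and Eng runs from -1.28 to 1.14 between the ranges.

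Further genes of endothelium, listed with earlier results of these data known, leaned the same way with 0 called by limma. Of 14 transcription factors of endothelium, 10 passed the filter. Their median was -0.29, and 9 of them lay below 0. Without Runx1-null mouse 3 the median was -0.62, without Runx1-null mouse 1 it was -0.13, without Runx1-WT mouse 1 it was -0.55, and with a 60th percentile filter it was -0.15. Fli1, an ETS factor of endothelial and blood cells, was at 73.5, 48.7 and 86.2 in Runx1-null and 128, 124 and 172 in Runx1-WT mice, a log2 difference of -1.05 (standard error 0.33). It was the only one of the 10 tested whose groups did not overlap, where the background was 3.29% of all tested probe sets. Mef2c had a difference of -0.84 (standard error 0.35), Epas1 one of -0.15 (standard error 0.15) and Klf4 one of 0.04 (standard error 0.17). Epas1 was at 2564 to 3652 and Klf4 at 2919 to 4662 over the 6 mice, above every value of the 10 endothelial genes. Which cells made this signal was not tested. Erg, Sox18, Tal1 and Lyl1 were below the filter, and Lyl1 was below the floor in all 6 mice.

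Of 33 other endothelial surface and secreted genes, 26 passed the filter, with 22 below 0 and 4 above. Their median was -0.38 (-0.57 without Runx1-null mouse 3). Some of these genes were brighter in all 6 mice than every value of the 10 endothelial genes. Among them were Podxl (4524 to 6332, log2 difference -0.08), Fabp4 (1913 to 3395, -0.36) and Efnb2 (1456 to 2708, -0.11). Which cells made this signal was not tested, so the count of directions need not describe endothelium alone. Esm1, a proteoglycan of sprouting endothelium, had a difference of -1.49 (standard error 0.97) and the apelin receptor gene Aplnr one of -0.97 (standard error 0.46). At the other end, the protocadherin gene Pcdh12 had 0.95 (standard error 0.54) and Ecscr 0.27 (standard error 0.32). The genotypes separated for 3 of the 26 (Cd34, Adgrl4 and Mmrn2, named here after their values were seen), all lower in Runx1-null mice, where the background was 3.29% of all tested probe sets. Separations in this and all other further lists were read on the deposited values. Quantile normalization and median scaling removed those of Kdr and Tek. Whether the separations of the further lists remain after either was not tested. Adgrl4 was at 94.4, 84.9 and 163 in Runx1-null and 212, 192 and 198 in Runx1-WT mice. Cd34, which fibroblasts and progenitors also make, was at 347, 490 and 350.01 in Runx1-null and 684, 549.6 and 592 in Runx1-WT mice.

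Lists of other cells of a gland digest differed between the mice as well, several of them by an amount that rested on 1 array, and their part in the endothelial differences was not tested. Stromal matrix genes had a median of -0.60, and 10 of 10 lay below 0. The genotypes separated for 1 of the 10 (Col6a1, lower in Runx1-null mice), where the background was 3.29% of all tested probe sets. Leaving out Runx1-null mouse 3 gave a median of -0.18, leaving out Runx1-WT mouse 1 gave -0.39, and the 4 mice with low animal numbers gave -0.29. Their summed intensities were 5806 to 15055 in Runx1-null and 13789 to 17342 in Runx1-WT mice. The low end was Runx1-null mouse 3, which was the highest of the Runx1-null mice for the endothelial sum. Genes of pericytes and vascular smooth muscle were below 0 for 5 of 7, with a median of -0.31. It was -0.17 without Runx1-null mouse 1, -0.45 without Runx1-null mouse 2 and -0.04 with a 60th percentile filter. Their sums were 7448 to 8928 in Runx1-null and 8037 to 10020 in Runx1-WT mice. The brightest genes in these sums, Notch3, Mcam and Anpep, had differences of -0.04, 0.05 and 0.06. The genotypes separated for 2 of the 7 (Rgs5 and Abcc9), both lower in Runx1-null mice, where the background was also 3.29%. Rgs5 was at 940, 658 and 213 in Runx1-null and 1532, 1005 and 1480 in Runx1-WT mice. Abcc9 was at 262, 172 and 265 in Runx1-null and 507, 357 and 309 in Runx1-WT mice. Leukocyte genes were below 0 for 9 of 10 (median -0.33), but this direction was not stable. The median was 0.50 when Runx1-WT mouse 3 was left out, 0.07 when Runx1-null mouse 2 was, and 0.22 among the 4 mice with low animal numbers. It was -0.51 when Runx1-null mouse 3 was left out, -0.74 when Runx1-WT mouse 1 was, and -0.73 when it was Runx1-WT mouse 2. Their sums were 1309 to 2424 in Runx1-null and 1573 to 6231 in Runx1-WT mice. The high end was Runx1-WT mouse 3, the Runx1-WT mouse with the lowest endothelial sum. Ptprc, which encodes the gated CD45, was below the filter and not among the 10 tested, with 1 value below the floor. It was at 204.5 in that mouse and at 18.3 to 47.4 in the other 5.

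Of 8 platelet and erythroid genes, 4 passed the filter, 3 of them below 0. Their sums were 522 to 713 in Runx1-null and 623 to 920 in Runx1-WT mice, and Gp1bb and Hba-a1 were below the floor in all mice. The genotypes separated for 1 of the 4 (Alas2, lower in Runx1-null mice), where the background was 3.29% of all tested probe sets. They separated for 0 of the tested leukocyte, basal and luminal genes. Basal and myoepithelial genes had the opposite sign, with 5 of 6 above 0 and a median of 0.49, which ran from 0.10 (without Runx1-null mouse 2) to 1.04 (without Runx1-null mouse 3) when 1 mouse was left out and was 0.21 without the filter. Their sums were 12573, 12049 and 4012 in Runx1-null and 5477, 4190 and 9421 in Runx1-WT mice, so they were high in the 2 Runx1-null mice with the lowest endothelial sums and in Runx1-WT mouse 3. The luminal list had a median of 0.05 (0.14 after median scaling), and its sums, given above, stayed within a narrow range.

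**Figure D4:**
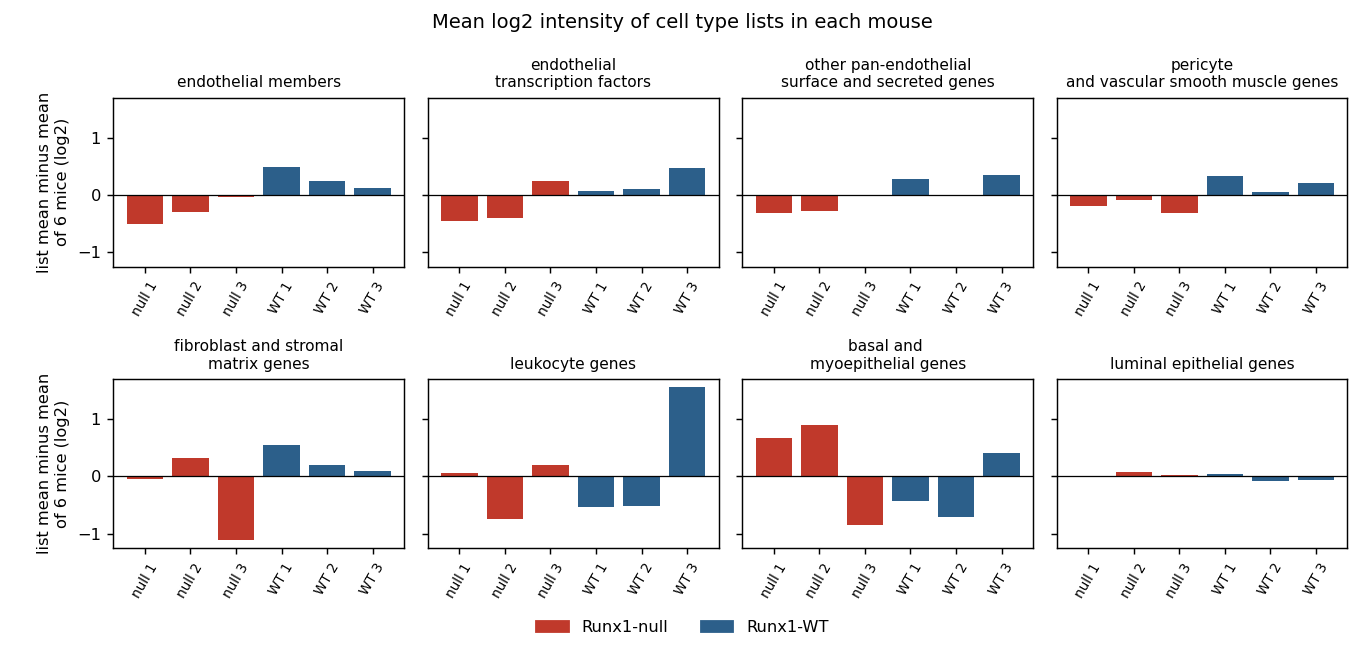
Mean log2 intensity of each list of genes in each mouse (tested genes, 1 probe set a gene), relative to the mean of the 6 mice, with Runx1-null mice (red) to the left of Runx1-WT mice (blue). The endothelial genes are lowest in Runx1-null mice 1 and 2 and highest in Runx1-WT mouse 1, stromal matrix genes are lowest in Runx1-null mouse 3, leukocyte genes are highest in Runx1-WT mouse 3, and luminal genes are nearly level.

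The genes whose pattern over the 6 mice was most like the mean endothelial profile were found by Pearson's r, as a description. This profile was the mean standardized log2 value over all tested endothelial probe sets, so Flt1 and Eng counted more than once in it. A profile with 1 probe set a gene was not used. Of 22697 other tested probe sets, 1.11% had an r over 0.9. The 10 closest were those of Alas2, Decr2, Oaz2, Sgpp1, 5430400D12Rik, Golm1, Cpt1a, Eif4b, Pank2 and Galm, with r of 0.987 to 0.997. Alas2, which encodes the erythroid enzyme of heme synthesis, was at 50.5, 51.6 and 72.7 in Runx1-null and 117, 104 and 80.9 in Runx1-WT mice. None of the 10 was on the lists of further endothelial genes.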

How the data were processed

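RNA of sorted YFP+ luminal MECs from 3 Runx1-null and 3 Runx1-WT mice was amplified and hybridized to Mouse Genome 430 2.0 arrays, 1 per mouse. The authors deposited linear intensity values for 45101 probe sets, normalized with dChip (version and model not given in the sources used here). Precision is limited by the number of arrays. Mice were littermates per the methods, but the litter of each is not given in the sources used here. The annotation gave 34958 probe sets 1 gene symbol, 932 several and 9211 none here. Values were floored at 19.335 and log2 was taken. Probe sets with 1 symbol and a mean at or above the 40th percentile (22709) were fitted with limma 3.58.1 in R 4.3.3 (eBayes with trend, Benjamini-Hochberg over all). The code was tested on simulated data. Single values were compared by exact permutation tests, two-sided.

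The text names all endothelial genes with all their probe sets. Of each further list it gives counts, with up to 2 genes at each end of the difference. Others, such as Cd34, Adgrl4, Mmrn2, Vegfb, Ptprc, Podxl, Fabp4, Efnb2, Notch3 and Col6a1, were named after their values were seen. The members and lists were chosen with earlier results of these data known. Alternatives were no filter, a 60th percentile filter, quantile normalization, median scaling, a floor at the 10th percentile, a pseudocount of 5.04, 1 probe set a gene, other variance models, the methods' t-test, blocking on the animal number range, the lower range alone and leaving out each mouse. The upper range alone, and both ranges with 1 probe set a gene, were added after seeing the data.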

Additional observations from a re-analysis of the deposited data

How the results depend on the processing

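Limma called 0 probe sets, and 0 of the endothelial ones, in the main setting and under every alternative run, including 0 to 0 without each mouse in turn. The methods' t-test gave 560 probe sets at an unadjusted p under 0.05, with 0 endothelial ones and 0 after adjustment. The endothelial median of -0.50 was -0.84 with only the low animal numbers and 0.043 with only the high ones (added after seeing the data). With 1 probe set a gene it was -0.85 and -0.18 in these mice. It was -0.72 to -0.42 without each mouse in turn. Of the 2 tested probe sets with groups that did not overlap, 0 remained after quantile normalization, after median scaling and with a 60th percentile filter, which left 3 endothelial probe sets. That count was 9 in the lower range, where the share of all tested probe sets was 22.8%. It was 2 to 5 when 1 mouse was left out, and the share changed too. The count was 5 for Runx1-WT mouse 3 (share 13.0%) and 4 for Runx1-null mouse 3 (9.14%). It was 3 for mouse 1 of either genotype (Runx1-null 5.74%, Runx1-WT 4.19%). For mouse 2 of either genotype it stayed at 2, with higher shares than in the main setting (Runx1-null 8.35%, Runx1-WT 9.35%). The direction of a gene turned for Pecam1 in the lower range (0.0061) and for Eng (1.14), Vwf (0.13) and Flt1 (0.13) in the upper, and for no other tested gene under the normalizations, the pseudocount or without a mouse. The cause was not tested.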

Other observations

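Ligands and co-receptors of the VEGF, angiopoietin and BMP9 pathways, which many cell types make, were below 0 for 9 of 12 tested genes and above for 3, with a median log2 difference of -0.15. It was -0.40 without Runx1-null mouse 3, -0.01 without Runx1-null mouse 1 and -0.06 after median scaling. Nrp1, a co-receptor of VEGF-A and semaphorins, was at 522, 618 and 716 in Runx1-null and 1714, 2497 and 609.9 in Runx1-WT mice (log2 difference -1.17, standard error 0.50). Runx1-WT mice 1 and 2 stood high, as they did for Flt1 and Vwf, and Runx1-WT mouse 3 lay among the Runx1-null mice. Vegfc, the ligand of lymphatic growth, was at 815, 486 and 238 in Runx1-null and 199, 182 and 444 in Runx1-WT mice (log2 difference 0.85, standard error 0.53). Limma called none of the 12, and the groups did not overlap for 1 (3.29% of all tested probe sets did so with Runx1-null lower). This was Vegfb, at 239, 191 and 211 in Runx1-null and 243, 275 and 258 in Runx1-WT mice. Whether it separates after scaling of the arrays was not tested.

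Of the lymphatic endothelial genes, Prox1, Pdpn and Lyve1 passed the filter. Lyve1 was at 43.2, 79.4 and 164 in Runx1-null and 68.6, 58.4 and 131 in Runx1-WT mice, highest in the third mouse of each genotype. The log2 difference of Prox1 was -0.38 (standard error 0.40). That of Pdpn, which basal cells and fibroblasts also make, was -0.37 (standard error 0.61). Of 5 adipocyte genes on the array, Lipe and Retn passed the filter, with differences of -0.22 and -0.06.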
